A study of Bos taurus with 6 samples.

Results

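Total RNA of bovine adrenal gland was hybridised against adrenal RNA on a spotted complementary DNA array of 19200 features, so that both colour channels of an array held the same tissue. Arrays were chosen by their titles, and 3 of the 6 columns of the deposited table were titled as adrenal against adrenal. The column of the adrenal array numbered 2 was identical to that of lymph array 3 in all 19200 rows, and its tissue is therefore unknown. The results rest on 2 of the 5 distinct arrays, adrenal 1 and adrenal 3, and the column of adrenal 2 is given apart. The other distinct arrays were lymph 1 and lymph 2, lymph tissue hybridised against itself. No treatment, breed, age or sex is stated, nor which lymph tissue was used, nor whether each array had an animal of its own. The p-values thus cover only array-to-array spread, which may be technical.

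The adrenal gland joins 2 endocrine tissues in 1 capsule. The cortex makes steroid hormones from cholesterol under the control of adrenocorticotropic hormone (ACTH), which acts through cyclic AMP and protein kinase A, and of angiotensin II. The medulla consists of chromaffin cells, which make noradrenaline and adrenaline and store them in granules filled with chromogranins. On a self-hybridisation both channels should hold equal amounts of every transcript, so the comparison shows how far, and for which genes, the log ratios left 0. A ratio of a tissue to itself carries no level of expression. The tissue label could therefore not be checked against the marker genes of cortex or medulla, and a cell type's number of cells and its RNA per cell cannot be told apart.

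The deposited values were log ratios whose logarithm base, dye orientation and normalisation are unknown from the sources used here. They are shown in deposited log units after each array was centred on its median, and above or below 0 does not say which channel was brighter. Adrenal 1 held 19166 values and adrenal 3 held 19115, and having only 2 arrays of each tissue limits precision. The values of adrenal 1 had an SD of 0.147 and ran from -1.24 to 1.57. Those of adrenal 3 had an SD of 0.181 and ran from -1.70 to 1.09. Values within 0.1 of the median made up 58.1% of adrenal 1 and 46.6% of adrenal 3. The mean SD of the adrenal arrays was 0.164 ± 0.0238 (SD, n = 2) and that of the lymph arrays 0.174 ± 0.0285 (SD, n = 2). This difference of -0.0100 was smaller than the spread between arrays of a tissue (two-sided exact permutation p = 0.667, with 0.333 the smallest p that 4 arrays allow).

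The farthest values lay mostly above 0 on adrenal 1 and below 0 on adrenal 3. Adrenal 1 had 77 values above 0.5 and 31 below -0.5, and adrenal 3 had 98 and 99. Beyond 1, a doubling if the base is 2, adrenal 1 had 4 values above and 2 below, while adrenal 3 had 1 above and 12 below. The share beyond 1 was 0.0313% on adrenal 1 and 0.0680% on adrenal 3, and 0 features were beyond 1 on both arrays.

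**Figure D1:**
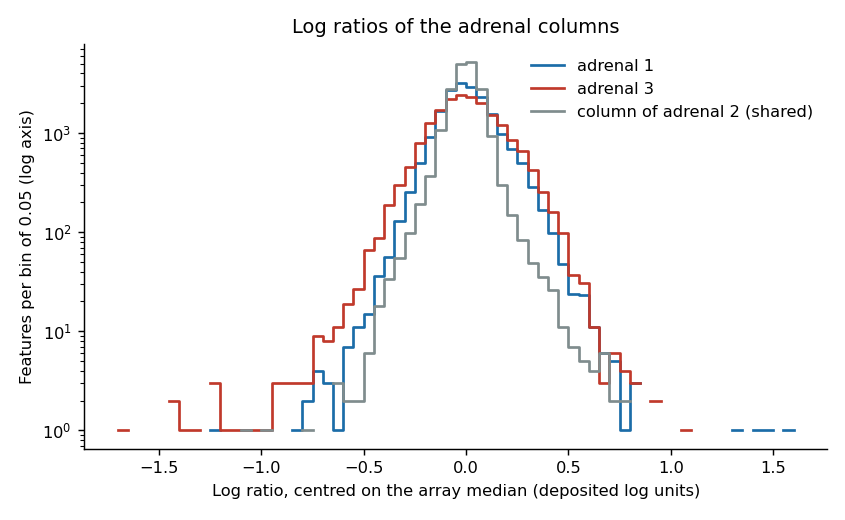
Number of features per bin of 0.05 deposited log units (logarithmic vertical axis) against the log ratio centred on the array median, for adrenal 1, adrenal 3 and the column of adrenal 2, whose tissue is unknown. Adrenal 1 reaches 1.57 above 0 and adrenal 3 reaches -1.70 below 0, and the column of adrenal 2 is the narrowest with an SD of 0.0926.

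No feature passed the test of a shared departure from 0 on the adrenal arrays. With limma on adrenal 1 and 3, the spread shared with lymph 1 and 2, 0 of 18941 features passed a Benjamini-Hochberg adjusted p of 0.05 (0%), every adjusted p being 0.559 or above. Before adjustment, 1406 features had a p under 0.05 (7.42%), of which 1016 lay above 0 (5.36%) and 390 below (2.06%). The unmoderated test on the same values also called 0 features, and 1168 reached an unadjusted p under 0.05. On simulated arrays with normal noise of limma's fitted spread, limma recovered 13.8% of features shifted by 0.5 and 99.8% of those shifted by 1. The simulated spread of a feature was equal on all arrays. The real arrays differed in spread and held far values on single arrays, so these shares need not hold for them. Without adrenal 1 limma called 17 features by their values on adrenal 3 alone, among them RPL27A, SEC31A, GOT2 and NUF2, and without adrenal 3 it called 3, of which PNMT was the single named gene. In these fits the lone adrenal array was taken to have the spread of the lymph arrays.

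The features of 1 named gene nearest to a shared departure above 0 belonged to genes of unlike roles, and each value given for them is of 1 feature. Ranked among such features by the smaller of the 2 values, PATZ1, a zinc finger transcription regulator, came first at 0.84 on adrenal 1 and 0.48 on adrenal 3, but it was not tested because lymph 1 had no value. UBE2E3, a ubiquitin-conjugating enzyme, stood at 0.51 on adrenal 1 and 0.45 on adrenal 3, with lymph 1 and 2 at 0.13 and 0.11. PTGES3, the p23 co-chaperone of HSP90, stood at 0.45 on adrenal 1 and 0.46 on adrenal 3, with lymph 1 and 2 at -0.15 and -0.051. For UBE2E3 and PTGES3 both adrenal values lay above both lymph values, as did those of 17.6% of all features tested. ACLY, which makes cytosolic acetyl-CoA from citrate and so feeds sterol synthesis, stood at 0.45 on adrenal 1 and 0.40 on adrenal 3. Its other feature stood at 0.087 and -0.039, close to 0. The GTP-binding protein gene GNL1 stood at 0.43 and 0.40, HPS4, of the complex that forms lysosome-related organelles, at 0.40 and 0.39, and CD2AP, an adaptor between membrane receptors and actin, at 0.48 and 0.39. TOMM34, a chaperone of mitochondrial protein import, stood at 0.39 and 0.42, SDF2, of the endoplasmic reticulum, at 0.38 and 0.38, and TFR2, a transferrin receptor, at 0.38 and 0.42. EGLN3, a prolyl hydroxylase that marks hypoxia-inducible factors, stood at 0.38 and 0.46, and GET3, the ATPase that inserts tail-anchored proteins into membranes, at 0.38 and 0.52. In each of these pairs adrenal 1 is given before adrenal 3. The second features of GNL1 at -0.10 and -0.12, TFR2 at -0.077 and -0.16 and HPS4 at -0.010 and -0.075 lay below 0 on both arrays. Those of CD2AP at 0.0096 and 0.10 and of GET3 at 0.086 and -0.0011 were nearer to 0. The ranked features of TOMM34, GET3, EGLN3 and SDF2 were also above 0 on both lymph arrays. On lymph 1 and 2 TOMM34 stood at 0.29 and 0.24, GET3 at 0.16 and 0.26, EGLN3 at 0.39 and 0.024 and SDF2 at 0.11 and 0.061. Those of ACLY, GNL1, HPS4 and TFR2 had opposite signs on lymph 1 and 2. The mean of UBE2E3 was 0.48 ± 0.085 (SE of limma, n = 2) and that of PTGES3 0.46 ± 0.086, both at a limma adjusted p of 0.559.

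Among features of 1 named gene ranked in the same way below 0, 4 of the 12 that ranked highest came from the last stretch of feature numbers, where adrenal 3 held many low values. GYG1, glycogenin, the primer of glycogen synthesis, stood at -0.37 on adrenal 1 and -0.34 on adrenal 3. LYRM2, a mitochondrial LYR-motif protein, had values of -0.36 on adrenal 1 and -0.34 on adrenal 3, with lymph 1 and 2 at 0.28 and 0.16, so that both adrenal values lay below both lymph values, as in 16.6% of features tested. POR, the reductase that passes electrons to the microsomal cytochromes P450 of steroid synthesis, stood at -0.30 on adrenal 1 and -0.28 on adrenal 3 in 1 of its features. Its other feature stood at -0.15 and 0.092, on opposite sides of 0. ZMIZ2, a coactivator of the androgen receptor, stood at -0.81 on adrenal 1 and -0.28 on adrenal 3, with the kinetochore gene NUF2 at -0.31 on adrenal 1 and -1.34 on adrenal 3. For both, the values of the 2 arrays differed by more than 0.5. CRYBG1 stood at -0.37 and -0.34, the extracellular matrix gene ECM2 at -0.32 and -0.34, and TMEM88, an inhibitor of Wnt signalling, at -0.31 and -0.35. PREX1, an activator of the GTPase Rac, stood at -0.31 and -0.38, the zinc finger gene ZNF22 at -0.30 and -0.36, the embryonic myosin gene MYH3 at -0.27 and -0.31, and CCDC12 at -0.27 and -0.29. ZNF22 was also below 0 on lymph 1 and 2, at -0.31 and -0.19, and CCDC12 at -0.32 and -0.11. The second feature of PREX1 stood at -0.013 and -0.014, and that of MYH3 lay above 0 at 0.11 and 0.13. GYG1, ECM2, NUF2 and CCDC12 were the 4 from the last stretch. The mean of ZMIZ2 was -0.55 ± 0.12 (SE of limma, n = 2) and that of NUF2 -0.83 ± 0.19. Of these 12 features, NUF2 alone passed without adrenal 1, at -1.34 (limma adjusted p = 0.00428).

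Departures recurred weakly between the 2 adrenal arrays, and more often above 0 than below. Each array alone also held more values above 0.25 than below -0.25, with 1172 and 524 on adrenal 1 and 1691 and 1188 on adrenal 3. Of 19081 features with a value on both, 273 lay above 0.25 on both (1.43%), 43 lay below -0.25 on both (0.225%) and 103 lay beyond 0.25 on opposite sides. Beyond 0.5, 2 features were above on both, 2 below on both and 0 opposite. Across features, which share the print run and their sequences and are not replicates, Pearson's r between adrenal 1 and 3 was 0.150 and Spearman's rank correlation 0.152, and 55.2% lay on the same side of 0. Pairs with a lymph array gave values of the same order. Adrenal 1 and lymph 2 had an r of 0.158, with 185 features beyond 0.25 on the same side and 57 on opposite sides. Adrenal 3 and lymph 1 had an r of 0.0562, with 324 and 205. The excess above 0 was also seen in pairs with lymph. Adrenal 1 and lymph 1 had 251 features above 0.25 on both and 61 below -0.25 on both. For lymph 1 and 2 these counts were 152 and 43. No test was made of whether 2 adrenal arrays resembled each other more than an adrenal and a lymph array.

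Features far from 0 on 1 adrenal array had medians near 0 on the other, with exceptions. The 76 features above 0.5 on adrenal 1 that had a value on adrenal 3 stood there at a median of -0.020, and 35 were on the same side. The 30 below -0.5 on adrenal 1 had a median of -0.088 on adrenal 3, with 19 on the same side. The 98 features above 0.5 on adrenal 3 had a median of 0.072 on adrenal 1, with 62 on the same side. The 98 below -0.5 on adrenal 3 had a median of 0.011 on adrenal 1, with 44 on the same side. In the same order, 13, 5, 16 and 6 features were beyond 0.25 on the same side of the other array.

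**Figure D2:**
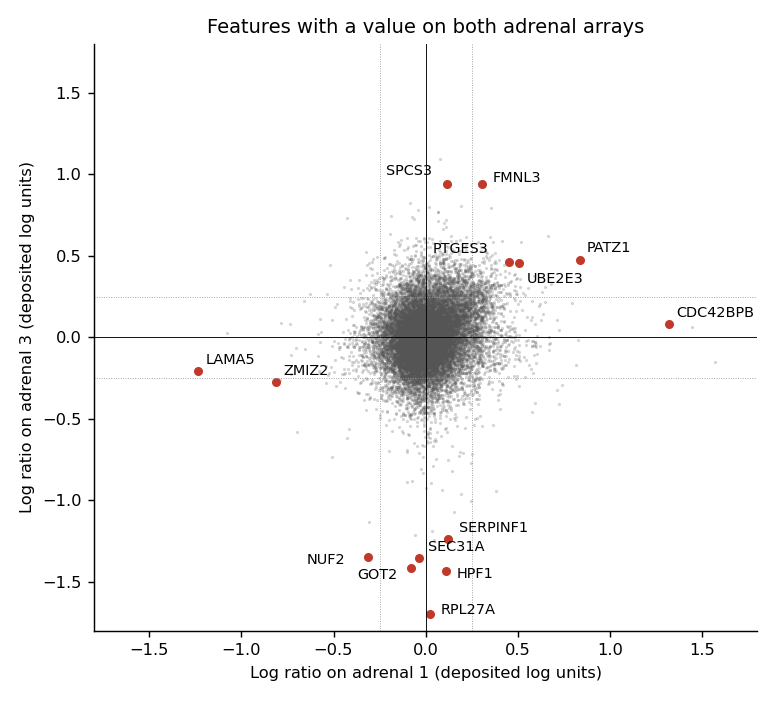
Log ratio on adrenal 3 against log ratio on adrenal 1 (deposited log units), 1 point for each of the 19081 features with a value on both arrays, with dotted lines at 0.25 and -0.25 and some genes of the text marked. The far points lie along the axes, on 1 array only, such as RPL27A at -1.70 on adrenal 3 and 0.021 on adrenal 1, while PATZ1, UBE2E3 and PTGES3 lie above 0.25 on both.

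The farthest value on adrenal 1, 1.57, was of a feature with several gene symbols, and features without a symbol stood at 1.44 and -1.08. Among features of 1 named gene, the farthest values belonged to genes of unlike roles. Above 0 were PNMT, the enzyme that methylates noradrenaline to adrenaline, at 1.499 with an empty cell on adrenal 3, and CDC42BPB, a kinase that acts on the actin cytoskeleton under CDC42, at 1.32 on adrenal 1 and 0.079 on adrenal 3. Lymph 1 and 2 held 0.75 and -0.054 for CDC42BPB. The junction scaffold gene MAGI1 stood at 0.79 on adrenal 1 and 0.21 on adrenal 3, the replication fork gene TONSL at 0.74 and -0.29 and the transporter gene ABCB6 at 0.72 and 0.044 on the same arrays. Below 0, LAMA5, a laminin chain of basement membranes, stood at -1.24 on adrenal 1 and -0.21 on adrenal 3. ICAM3, a leukocyte adhesion receptor, stood at -0.79 and -0.26, TAP2, of the peptide transporter for class I antigen presentation, at -0.78 and 0.086, AOC1, diamine oxidase, at -0.73 and 0.083, and CACNB3, a calcium channel subunit, at -0.73 and -0.11. The value of adrenal 1 stands first in each pair. TONSL, TAP2 and AOC1 had opposite signs on the 2 arrays.

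On adrenal 3 the farthest named values were below 0. RPL27A, of the large ribosomal subunit, stood at 0.021 on adrenal 1 and -1.70 on adrenal 3, with lymph 1 and 2 at -0.10 and 0.0031. HPF1, the partner of PARP1 in serine ADP-ribosylation, stood at 0.11 on adrenal 1 and -1.43 on adrenal 3. GOT2, the mitochondrial aspartate aminotransferase, stood at -0.079 on adrenal 1 and -1.41 on adrenal 3. All 3 were near 0 on adrenal 1. SEC31A, of the coat of vesicles that leave the endoplasmic reticulum, stood at -0.035 and -1.35, SERPINF1, a secreted serpin, at 0.12 and -1.24, INTS15, of the Integrator complex, at 0.25 and -1.004, and DNM2, the dynamin of membrane fission, at 0.38 and -0.94. Here too adrenal 1 comes first. Above 0 on adrenal 3 were SPCS3, a signal peptidase subunit, at 0.12 and 0.94, the actin regulators FMNL3 and SPIRE2 at 0.31 and 0.94 and at 0.021 and 0.80, and the translation factor gene EIF3CL at -0.085 and 0.82. PPM1K, the phosphatase of branched-chain keto acid dehydrogenase, stood at 0.35 and 0.79 and the tight junction gene TJP3 at 0.068 and 0.77.

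Where the gene of a far feature had other features, these did not share its departure. The other 4 features of LAMA5 stood between -0.087 and 0.060 on adrenal 1, where the far one stood at -1.24. The other feature of CDC42BPB stood at -0.051 against 1.32. On adrenal 3 the other feature of HPF1 stood at -0.20 against -1.43, that of MXRA7 at 0.029 against -1.21, and that of INTS15 at 0.087 against -1.004. Over the 19 features beyond 1 on at least 1 adrenal array, 11 were of 1 named gene, and these 5 were the genes among them with another feature.

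The share of low values on adrenal 3 was higher in the last feature numbers than elsewhere. Features 18001 to 19200 made up 6.25% of the array and held 6 of the 12 values below -1 on adrenal 3. They also held 22 of its 99 values below -0.5, which is 1.89% of the values there against 0.429% elsewhere, and 37 of its 85 empty cells. The median of adrenal 3 over this stretch was -0.038. On adrenal 1 the same stretch held 1 value below -0.5, 0 empty cells and a median of 0.0041. Of the 23 single-gene features below -0.7 on adrenal 3, 9 lay in it. The lowest run of 20 was features 18561 to 18580, with a median of -0.39 on adrenal 3 and -0.061 on adrenal 1. It held RPL27A and GOT2 as neighbours, then AACS, an enzyme that activates acetoacetate, at -0.89, the phosphatase subunit gene PPP2R3C at -0.88, ADIPOQ, adiponectin, at -0.50, and PSME2, of the proteasome activator, at -0.39. PI4KB, GZF1, EEF2K, LOC508628 and CD74 in this run had no value on adrenal 3. These names were picked with their values in view, and where each feature lay on the slide was not used here. The part of this stretch in the low values was not tested, and without it limma called 0 of 17779 features, with 1320 at an unadjusted p under 0.05.

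Adrenal 1 was uneven in another stretch, and lymph 1 more so. Features 8001 to 11600, 18.75% of the array, held 29 of the 34 empty cells of adrenal 1, 38 of its 108 values beyond 0.5 and 4 of its 6 beyond 1. The SD of adrenal 1 was 0.167 in this stretch and 0.142 outside it, and 1.06% of its values there lay beyond 0.5 against 0.449% elsewhere. On adrenal 3 the shares beyond 0.5 were 1.20% inside and 0.992% outside. Lymph 1 had 131 of its 177 empty cells in the same stretch. Of its values there, 4.27% lay beyond 0.5 against 1.40% elsewhere, and its SD was 0.246 inside and 0.181 outside. On lymph 2 the shares beyond 0.5 were 0.417% and 0.378%. LAMA5, CDC42BPB and PATZ1 had their far features there. Of 48 runs of equal length, however, the highest SD on adrenal 1, 0.193, was outside this stretch, in features 14801 to 15200. That run held PNMT at 1.499, the feature with several symbols at 1.57, ZMIZ2 at -0.81 and TAP2 at -0.78 on adrenal 1. Its SD was 0.167 on adrenal 3 and 0.219 on lymph 1, which had 5 empty cells there. The part of this run in the far values was not tested.

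**Figure D3:**
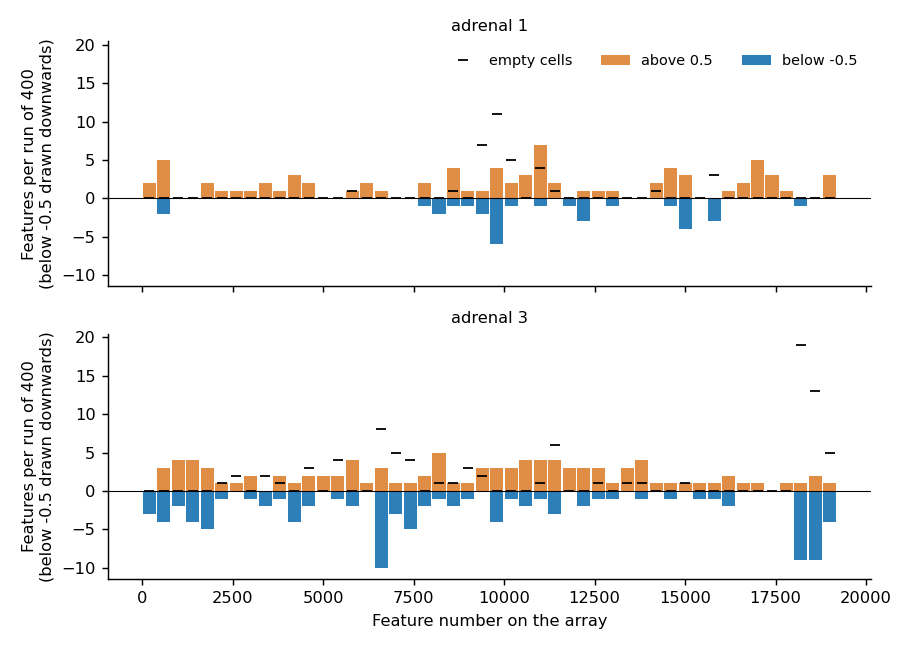
Number of features above 0.5 (upward bars), below -0.5 (downward bars) and without a value (dashes) in runs of 400 consecutive feature numbers, on adrenal 1 (top) and adrenal 3 (bottom). Values below -0.5 and empty cells on adrenal 3 are frequent in the last 1200 features and in features 6401 to 6800. Empty cells on adrenal 1 lie mostly between 8001 and 11600.

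Features of the same gene did not depart together. Over 3160 genes with at least 2 features, the intraclass correlation, which is 1 if the features of a gene agree and 0 if they differ as much as features of different genes, was 0.0055 on adrenal 1. It was -0.021 on adrenal 3 and -0.019 for the mean of both arrays. Among the 845 genes with at least 3 features, the highest gene means were those of PATZ1, EIF3CL, LIN37, TOX4 and DHRS7B. PATZ1 stood at 0.28 on adrenal 1 and 0.36 on adrenal 3, though 1 of its 3 features was at -0.19 and 0.35. LIN37, of the DREAM complex that represses cell cycle genes, stood at 0.15 and 0.26 over 4 features, and lymph 1 and 2 at 0.18 and 0.082. EIF3CL stood at 0.14 and 0.41, TOX4, of a phosphatase complex on chromatin, at 0.20 and 0.16, and DHRS7B, of the peroxisome, at 0.11 and 0.25. The lowest were DCUN1D2, which helps attach NEDD8 to cullins, at -0.14 and -0.27, the scavenger receptor gene SCARF1 at -0.12 and -0.23, and the membrane protein gene STOM at -0.19 and -0.15. ELF5 at 0.055 and -0.36 and LAMA5 at -0.26 and -0.038 completed the 5. Of 8318 gene means tested, 0 passed with limma, and 612 reached an unadjusted p under 0.05, 457 above 0 (5.49%) and 155 below (1.86%).

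As means over the features of a gene, which are the values given from here on, the steroid-making enzymes of the cortex stayed near 0. Of 28 genes listed, 16 were on the array and 15 were tested. Means above 0 were found for 8 and below 0 for 7, with a median of 0.0078, against 51.4% of all genes above 0 and a median of 0.0029. No member passed with limma, and 0 of 15 reached an unadjusted p under 0.05 (0% against 7.36% of all genes). Single features did reach it, as did 7.42% of all features. These were features of POR at -0.30 on adrenal 1 and -0.28 on adrenal 3, PAPSS2 at 0.14 and 0.44, and SRD5A1 at 0.18 and 0.38. The other features of these genes did not reach it, such as that of PAPSS2 at -0.34 and 0.050. CYP11A1, which cleaves the side chain of cholesterol to make pregnenolone, stood at -0.11 on adrenal 1 and -0.087 on adrenal 3. Its electron donor FDX1 stood at -0.055 and 0.15, on opposite sides of 0. CYP17A1, which leads to cortisol and androgens, stood at 0.070 on adrenal 1 and -0.11 on adrenal 3, with CYB5A, which favours its androgen-forming reaction, at 0.12 and 0.037. CYP11B1, which makes cortisol and in cattle also aldosterone, stood at 0.039 on adrenal 1 and 0.19 on adrenal 3, above lymph 1 and 2 at -0.15 and -0.0061. HSD3B1, which forms progesterone, stood at -0.020 on adrenal 1 and had no value on adrenal 3.

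The enzymes that interconvert or inactivate steroids spanned the same range. The cortisol-converting enzymes HSD11B1 and HSD11B2 stood at 0.0039 and 0.012 and at 0.041 and -0.17 on adrenal 1 and 3. The 17-beta dehydrogenases HSD17B1, HSD17B4 and HSD17B8 stood at -0.044 and -0.0074, at -0.050 and 0.036 and at -0.084 and 0.0065. HSD17B10, the highest of the list, stood at 0.26 and 0.021, and POR, the lowest, at -0.22 and -0.093. SRD5A1, steroid 5-alpha reductase, stood at 0.083 and 0.11, CYP19A1, the aromatase, at 0.011 and 0.062, and PAPSS2, which makes the sulphate donor for steroid sulphation, at -0.081 and 0.22. On both arrays 6 of the 15 were above 0 and 3 below, and 6 had opposite signs. Over all genes, 29.1% were above 0 on both arrays and 26.4% below on both.

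Cholesterol supply was measured for 31 of 38 genes, with 14 above 0, 17 below and a median of -0.014. MSMO1, the methylsterol monooxygenase of cholesterol synthesis, was the highest at 0.41 and 0.015 on adrenal 1 and 3, and LIPE, the hormone-sensitive lipase that frees stored cholesterol, the lowest at -0.36 and -0.071. Both values rested on adrenal 1. The receptor gene SCARB1, which takes up cholesterol from high-density lipoprotein, stood at 0.19 and -0.13, TSPO, of the outer mitochondrial membrane, at 0.056 and 0.051, and the cholesterol esterifying enzyme SOAT1 at -0.19 and 0.031. VDAC1, a channel of the same membrane, stood at 0.13 and 0.23. It was the 1 member at an unadjusted p under 0.05 with limma, 3.23% of the list against 7.36% of all genes. Members of lists that are named without being their highest or lowest gene, outside steroid synthesis and chromaffin cells, were picked with their values in view.

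Hormone signalling into the cortex gave 19 tested genes of 20 on the array, 7 above 0 and 12 below, with a median of -0.0025. AGTR1, the receptor for angiotensin II, was the highest at 0.11 on adrenal 1 and 0.49 on adrenal 3, with lymph 1 and 2 at -0.22 and -0.0020, and its mean of 0.30 ± 0.11 (SE, n = 2) had a limma adjusted p of 0.648. It was the 1 member at an unadjusted p under 0.05 (5.26% of the list against 7.36% of all genes). MC2R, the ACTH receptor, stood at 0.054 and 0.0099, its G protein subunit GNAS at -0.0097 and 0.0047, and the protein kinase A subunits PRKACA, PRKACB and PRKAR1A at -0.010 and -0.13, at -0.097 and -0.20 and at -0.00085 and -0.0031. PRKACB was the lowest of the list. Of 17 genes of cortical transcription and zonation, 7 were above 0 and 10 below, with a median of -0.012. CITED2, a coregulator needed for adrenal development, was the highest at 0.28 and 0.25, with lymph 1 and 2 at 0.26 and 0.23, so that all 4 arrays gave nearly the same value. NR5A1, steroidogenic factor 1, stood at 0.024 and -0.14, DLK1, a marker of cells beneath the capsule, at 0.36 and 0.0085, and FST, the activin antagonist, was the lowest at -0.14 and -0.22.

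Chromaffin cell genes held the widest values among the lists of cortex and medulla, on single arrays. Of 44 genes listed, 22 were on the array and 21 tested, with 14 above 0, 7 below and a median of 0.051. By array, the median was 0.024 on adrenal 1, 0.050 on adrenal 3, 0.16 on lymph 1 and 0.034 on lymph 2. On both arrays 7 were above 0 and 5 below. In the order of catecholamine synthesis, TH, the rate-limiting hydroxylase, stood at -0.16 on adrenal 1 and 0.27 on adrenal 3, DDC, the decarboxylase, at -0.0065 and -0.20, and DBH, which makes noradrenaline, at 0.15 and -0.066. PNMT stood at 1.499 on adrenal 1, with no value on adrenal 3, 0.0042 on the column of adrenal 2, and -0.18 and -0.22 on lymph 1 and 2. Its departure was thus seen on 1 array alone, and it did not enter the test. The feature of PNMT lay in features 14801 to 15200, the run with the highest SD on adrenal 1. Among the granule proteins named next, CHGA and CHGB differed most between the arrays, and CHGB alone had opposite signs. CHGA, chromogranin A, stood at -0.013 on adrenal 1 and -0.83 on adrenal 3, with CHGB at 0.39 on adrenal 1 and -0.38 on adrenal 3, the widest gap of a tested member after CHGA. SCG2, SCG3 and SCG5, further granins, stood at -0.088 and -0.17, at 0.25 and 0.056 and at 0.072 and 0.17.

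SLC18A2, the transporter that loads catecholamines into granules, stood at 0.24 on adrenal 1 and 0.11 on adrenal 3, with lymph 1 and 2 at 0.26 and 0.20. SLC18A2 above 0 and CHGA below 0 were the 2 members at an unadjusted p under 0.05 (9.52% of the list against 7.36% of all genes), and 0 of 21 passed with limma. The granule membrane cytochrome gene CYB561 stood at 0.11 and -0.0093, the peptide-amidating enzyme PAM at 0.18 and 0.14, and the peptide precursors PENK and ADM at -0.21 and 0.18 and at 0.098 and 0.22. The synaptic genes SYP, SYT1, STX1A and RAB3A stood at -0.10 and 0.016, at -0.099 and 0.20, at -0.058 and -0.052 and at -0.022 and 0.050. The neuronal genes UCHL1, STMN2 and GAP43 stood at 0.12 and 0.26, at 0.024 and 0.19 and at -0.055 and -0.084, and GATA3, a factor of chromaffin development, at 0.24 and -0.11. UCHL1 was the highest by its mean over both arrays and CHGA the lowest.

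**Figure D4:**
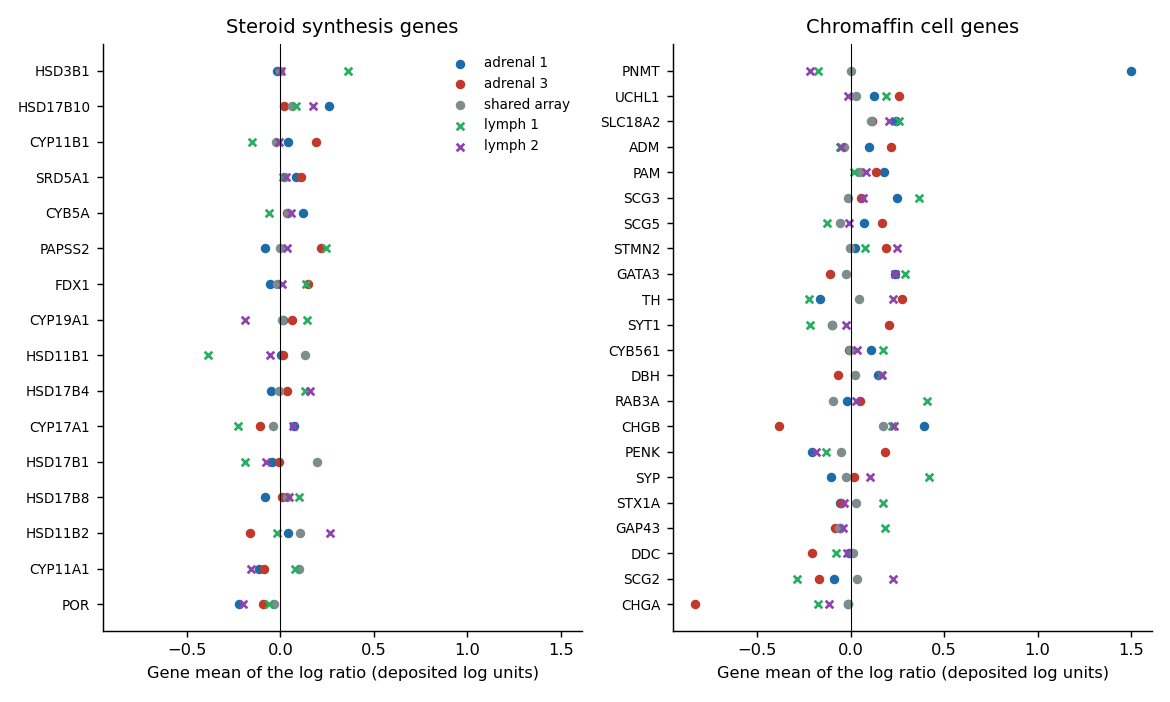
Gene means of the log ratio (deposited log units) for the 16 steroid synthesis genes (left) and the 22 chromaffin cell genes (right) on the array, with dots for adrenal 1, adrenal 3 and the shared column of adrenal 2 and crosses for lymph 1 and 2. Most values lie within 0.25 of 0, and PNMT on adrenal 1 (1.499) and CHGA on adrenal 3 (-0.83) stand apart.

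Markers of the other cell types that an adrenal sample can hold were measured in the same way. Leukocyte genes had 13 above 0 and 21 below of 34 tested, with a median of -0.024. CD8A, a coreceptor of T cells, was the highest at 0.29 and 0.58 on adrenal 1 and 3, with lymph 1 and 2 at 0.28 and 0.34, and CD48 the lowest at -0.17 and -0.17. CD8A was the 1 leukocyte gene at an unadjusted p under 0.05, and its partner CD8B stood at 0.10 and 0.12. Schwann and glial genes had 4 above and 7 below of 11, with the myelin enzyme gene CNP highest at 0.31 and 0.23 and APOD, a lipid carrier, lowest at 0.019 and -0.23. Endothelial and smooth muscle genes had 8 above and 9 below of 17, from CLDN5, a junction protein of endothelium, at 0.19 and 0.28 to ACTA2, smooth muscle actin, at -0.079 and -0.21. Capsule and matrix genes had 19 above and 13 below of 32, from the basement membrane gene NID2 at 0.19 and 0.24 to FBN1, fibrillin 1, at 0.033 and -0.41. Red cell and fat genes had 7 above and 5 below of 12, from LPL, lipoprotein lipase, at 0.23 and 0.21 to FABP4, a fatty acid carrier, at 0.11 and -0.27. Each of these lists had 1 gene at an unadjusted p under 0.05 and 0 past the limma threshold. That 1 gene was 2.94% (leukocyte) to 9.09% (Schwann and glial) of a list, against 7.36% of all genes.

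Among lists of the cell's common machinery, the cytosolic ribosomal proteins had the highest median, 0.090 over 52 genes, with 0.094 on adrenal 1 and 0.058 on adrenal 3, 0.0621 on both lymph 1 and lymph 2, and 0.039 on the column of adrenal 2. Of these genes, 39 were above 0 and 13 below by their mean, and 30 were above 0 on both arrays, which is 57.7% against 29.1% of all genes. FAU was the highest at 0.32 and 0.34, and RPL27A the lowest. Before adjustment, 10 above 0 and 1 below had a p under 0.05, 21.2% of the list against 7.36% of all genes. The lymph arrays gave FAU 0.32 and 0.23, overlapping the adrenal values. Oxidative phosphorylation genes had 43 above and 26 below of 69 tested, with a median of 0.032, 8 at an unadjusted p under 0.05 above 0 and 0 below (11.6% against 7.36% of all genes). Their highest was COX5B, a subunit of cytochrome c oxidase, at 0.29 and 0.35 and their lowest NDUFB11, of complex I, at -0.020 and -0.38. Mitochondrial ribosomal proteins had 34 above and 30 below of 64, from MRPS26 at 0.39 and 0.35 to MRPL18 at -0.091 and -0.48. Of these, 7 above 0 and 1 below had an unadjusted p under 0.05 (12.5% against 7.36% of all genes).

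Ubiquitin and proteasome genes had 32 above 0 and 18 below of 50, with a median of 0.025. Before adjustment 6 of them had a p under 0.05 (12% against 7.36% of all genes), all above 0, where 457 of all genes lay above at that level and 155 below. These were UBE2E3, UBE2R2 at 0.24 and 0.42 and UBE2D1 at 0.14 and 0.31, which conjugate ubiquitin, and PSME1 at 0.067 and 0.37, PSMD3 at 0.15 and 0.21 and PSMD4 at 0.15 and 0.17, of the proteasome and its activator. PSME2, the partner of PSME1, was the lowest at 0.056 and -0.39 and lay in the low run of adrenal 3. Translation factors had 22 above and 16 below of 38, from EIF4A1, the cap-complex helicase, at 0.25 and 0.23 to EIF3E at -0.42 and -0.058. Chaperones had 15 above and 18 below of 33, and apart from PTGES3 no member was above 0.25 on both arrays. The co-chaperone gene DNAJB6 was the lowest at -0.15 and -0.30. At an unadjusted p under 0.05 stood 5.26% of the translation factors and 6.06% of the chaperones, against 7.36% of all genes. HSP90AB1, an HSP90 isoform that binds PTGES3, stood at -0.017 on adrenal 1 and had no value on adrenal 3.

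Immediate early genes, which respond within minutes to stimuli and to tissue handling, had 6 above 0 and 13 below of 19 and a median of -0.025. On both arrays 7 were below 0 and 4 above. KLF6, the lowest, stood at -0.11 and -0.19, FOS at 0.16 and 0.060, JUN at -0.026 and -0.15 and EGR1 at 0.092 and -0.21. KLF4, the highest at 0.38 and 0.26, was the 1 member at an unadjusted p under 0.05 (5.26% against 7.36% of all genes). Genes often used as references for normalisation had 7 above and 9 below of 16, with a median of -0.026. ACTB stood at -0.065 and -0.035 and GAPDH at -0.041 and 0.071. PPIA stood at -0.26 and -0.18 and EIF2B2 at -0.23 and -0.18. These last were the 2 members at an unadjusted p under 0.05 (12.5% against 7.36% of all genes). PGK1, the lowest, stood at -0.011 and -0.57, and its feature lay in the last stretch of adrenal 3. RPLP0 was the highest at -0.016 and 0.36.

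Redox genes had 17 above and 19 below of 36. TXN, thioredoxin, was the highest at 0.49 and 0.27, with the glutathione transferases GSTA1 at 0.18 and 0.23 and GSTO1 at 0.14 and 0.21, and HMOX1, haem oxygenase, was the lowest at -0.13 and -0.33. These were the 4 members at an unadjusted p under 0.05 (11.1% of the list against 7.36% of all genes). Glycolysis and citrate cycle genes had 17 above and 18 below of 35, from PFKL, a phosphofructokinase, at 0.35 and 0.31 to GOT2. Cytoskeleton genes had 21 above and 23 below of 44, from ARPC5, of the actin-branching complex, at 0.26 and 0.22 to TUBA1A, an alpha-tubulin, at -0.016 and -0.73. Lysosome genes had 20 above and 20 below of 40, from the peptidase gene TPP1 at 0.18 and 0.35 to CTSA at -0.13 and -0.22. Among the large families, solute carriers had 75 above and 91 below of 166, from the peptide transporter gene SLC15A1 at 0.18 and 0.51 to SLC66A2 at -0.32 and -0.26. CD antigens had 26 above and 25 below of 51, and zinc finger genes 43 above and 43 below of 86, from ZNF566 at 0.35 and 0.32 to ZNF22. At an unadjusted p under 0.05 stood 11.4% of the glycolysis and citrate cycle genes, 4.55% of the cytoskeleton genes and 7.5% of the lysosome genes. For solute carriers, CD antigens and zinc finger genes the shares were 9.04%, 1.96% and 10.5%, against 7.36% of all genes. In every list 0 genes passed with limma.

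**Figure D5:**
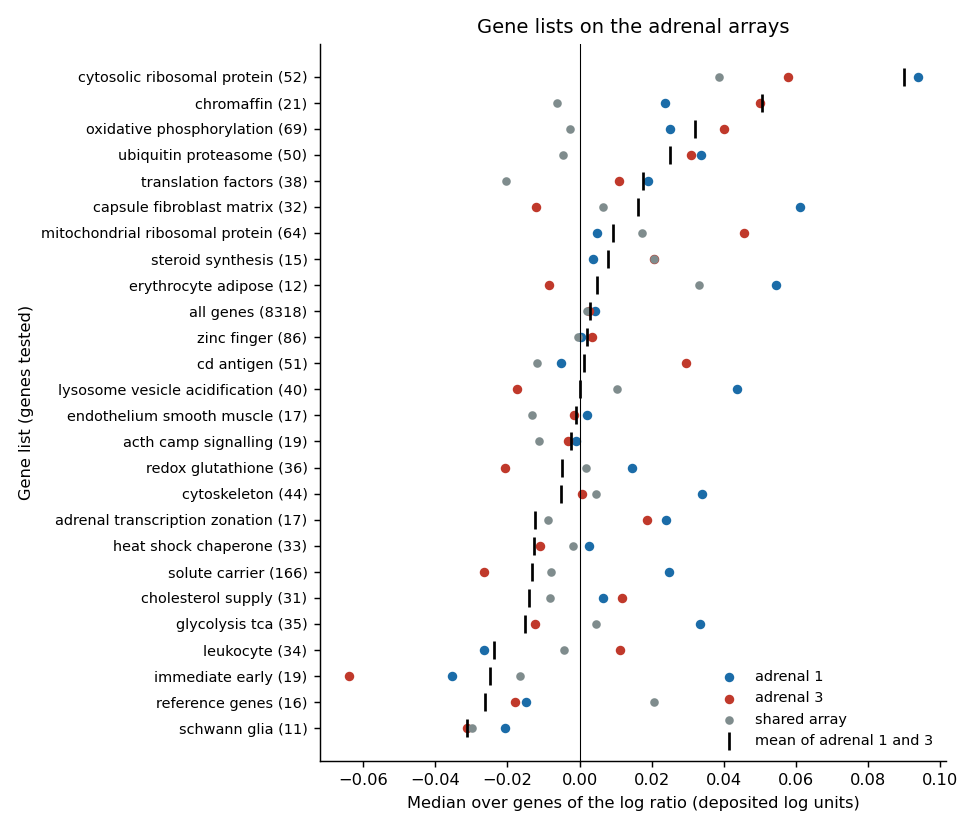
Median over genes of the log ratio (deposited log units) for 25 gene lists and all genes, on adrenal 1, adrenal 3 and the shared column of adrenal 2, with the median of the gene means over adrenal 1 and 3 as a bar and the number of genes tested in brackets. Cytosolic ribosomal proteins have the highest median at 0.090 and the Schwann and glial genes the lowest at -0.031.

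No difference between the adrenal and the lymph arrays passed the test. In the contrast of adrenal minus lymph, 0 of 18941 features passed with limma (0%), every adjusted p being 0.929 or above, and before adjustment 899 features had a p under 0.05 (4.75%), 424 above 0 (2.24%) and 475 below (2.51%). The unmoderated test called 0 features as well and had 926 at an unadjusted p under 0.05. On gene means 196 lay above 0 at that level (2.36%) and 205 below (2.46%). The smallest p above 0 was that of MRPS26, of the small mitochondrial ribosomal subunit, in 1 of its features, at 0.59 on adrenal 1 and 0.37 on adrenal 3 against -0.37 and -0.18 on lymph 1 and 2. Its difference was 0.75 ± 0.14 (SE of limma). Its other feature stood at 0.19 and 0.33 on the adrenal arrays and at 0.34 on lymph 2. ALDH2, which oxidises acetaldehyde, stood at 0.33 and 0.50 against -0.28 and -0.042, and PTGES3 differed by 0.56 ± 0.12. GDAP1L1 stood at 0.19 and 0.53 against -0.38 and -0.21, MEGF6 at 0.12 and 0.28 against -0.33 and -0.30, and CDH16, kidney cadherin, at 0.42 and 0.33 against -0.099 and -0.13. The other feature of GDAP1L1 also lay higher on the adrenal arrays, at 0.23 and 0.083 against 0.045 and 0.026. The other features of CDH16 and ALDH2 did not follow, with 0.16 and -0.15 and with -0.21 and -0.27 for CDH16 on adrenal 1 and 3, and -0.20 and -0.088 for ALDH2.

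On the other side, CTDSP1, a phosphatase of RNA polymerase II, stood at -0.24 and -0.31 on adrenal 1 and 3 against 0.35 and 0.27 on lymph 1 and 2, a difference of -0.58 ± 0.12 (SE of limma). LYRM2 differed by -0.57 ± 0.12. GPS2, of the nuclear receptor corepressor complex, stood at -0.22 and -0.30 against 0.31 and 0.30, and BFAR, a regulator of apoptosis, at -0.34 and -0.20 against 0.39 and 0.20. In these 4 the adrenal values were below 0 and the lymph values above. DPYSL5, of axon growth, stood at -0.11 and -0.19 against 0.35 and 0.41. The second features of GPS2 and BFAR did not follow, with 0.14 and -0.018 and with 0.022 and 0.19 on adrenal 1 and 3. Of the other features of DPYSL5, 1 lay above 0 on both adrenal arrays at 0.16 and 0.43, against -0.50 and 0.31 on lymph 1 and 2. The other lay below at -0.019 and -0.22, and below both lymph values of 0.18 and 0.11. None of these differences passed with limma, and each adjusted p was 0.929. Without adrenal 1, adrenal 3 or lymph 2, limma called 8, 3 and 5 features in this contrast, and 0 without lymph 1. The 8 without adrenal 1 were the far values of adrenal 3, such as RPL27A, GOT2, SEC31A and SERPINF1.

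The column of adrenal 2 was quieter than the arrays of known tissue. It held 19194 values with an SD of 0.0926, of which 81.9% lay within 0.1 of the median, while 36 lay beyond 0.5 and 1 beyond 1 (0.00521%). Its farthest named genes were MRPL37, of the large mitochondrial ribosomal subunit, at -0.98, MTHFSD at 0.71, WASF2, which drives actin branching, at 0.66, the DNA ligase gene LIG3 at 0.65, the mRNA export gene THOC3 at -0.60 and the kinase gene SRPK3 at 0.59. On adrenal 1 and 3 these stood at -0.066 and 0.056, at 0.18 and -0.13, at -0.095 and -0.24, at -0.042 and 0.15, at -0.055 and 0.32 and at 0.29 and -0.21 in the same order. None of these 6 genes was beyond 0.5 on adrenal 1 or 3. Over all features, 2 were above 0.5 on both this column and adrenal 1, 1 on both this column and adrenal 3, and 0 were below -0.5 on either pair. Of features beyond 0.25 on both, 33 lay on the same side and 23 on opposite sides with adrenal 1, and 47 and 46 with adrenal 3. Pearson's r across features was 0.104 with adrenal 1 and 0.0145 with adrenal 3. With this column counted as adrenal, limma called 0 features and 1123 reached an unadjusted p under 0.05.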

How the data were processed

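Adrenal 1, adrenal 3, lymph 1 and lymph 2 were analysed, with the column shared by adrenal 2 and lymph 3 apart. Per the labels, both channels of an array held total RNA of 1 tissue. The authors deposited 1 log ratio per feature and array, while the sources used here do not name the scanner, dyes, logarithm base or normalisation. The deposited log ratios were centred on each array's median. Of 19200 features, 12630 had 1 gene symbol in GEO's platform annotation, 224 had several and 6346 had none.

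limma 3.58.1 (lmFit and eBayes, R 4.3.3) fitted 1 coefficient per tissue to the 18941 features with 2 values per tissue, with two-sided tests, Benjamini-Hochberg adjustment and a threshold of 0.05. The SE is limma's moderated one. Gene lists were described on gene means, with no set test. In tests on simulated data over 18941 features, limma recovered 0% of features shifted by 0.25 in either comparison. The simulated noise was normal, with the same spread for a feature on all arrays and no empty cells, unlike the real arrays. A shift of 0.5 was recovered for 13.8% in adrenal against 0 and 0% in adrenal minus lymph, and a shift of 1 for 99.8% and 92%.

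Named features were those of 1 gene with the largest shared value on both adrenal arrays, the farthest on 1 array, the largest gap between arrays, or the smallest p for adrenal minus lymph. Added were genes of at least 3 features with the highest or lowest mean, list extremes, all steroid synthesis and chromaffin genes, and the farthest features of the shared column. A feature that these rules select is not reported here. The members, lists and rules were chosen with earlier results of these data known, and the pattern for CD antigen names was narrowed after values were seen. Alternatives were other centring, scaling, filters on empty cells, spread estimates, thresholds, gene averages, array choices and readings of the base. Other steps used scipy 1.17.1, numpy 2.4.6 and pandas 2.3.3 in Python 3.11.15, with figures from matplotlib 3.10.9.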

Additional observations from a re-analysis of the deposited data

Results flagged for a closer look

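Signals farther from 0 than 1 log unit appeared in cells outside the main test, because the feature was empty on another array or because the column has no known tissue. No lymph value or other array held a value as far from 0 for these features. PNMT, which makes adrenaline, stood at 1.499 on adrenal 1 and was empty on adrenal 3. LAMA5, a laminin chain, stood at -1.24 on adrenal 1, and an unnamed feature, number 8358, at -1.08 on the same array, both empty on lymph 1. HPF1, the partner of PARP1, stood at -1.43 on adrenal 3 and was empty on lymph 1. On the column of adrenal 2, unnamed feature 11028 stood at -1.06, with 0.091 and 0.25 on adrenal 1 and 3. Each was seen on 1 array. Of these features, PNMT passed in alternative limma fits, with no filter on empty cells and without adrenal 3. In both, its estimate was its single adrenal value and its own spread came from lymph 1 and 2 alone. These fits therefore measure no spread between adrenal arrays for PNMT.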

How the results depend on the processing

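Features called in adrenal against 0 numbered 0 with every centring, scaling, spread estimate and placement of the shared column that was run. In that comparison 1 was called with no filter on empty cells, PNMT, at its single adrenal value of 1.499. Leaving out 1 array gave 0 to 17 calls there and 0 to 8 in adrenal minus lymph. The number at an unadjusted p under 0.05 was 1406 in adrenal against 0, 612 on gene averages (fewer genes tested), and 736 to 1577 without 1 array. In adrenal minus lymph it was 899, 401 on gene averages, and 561 to 1518 without 1 array. The arrays used share only replicate number 1, so no replicate block could be fitted to them. On all 6 columns as labelled, adrenal minus lymph had 365 features at an unadjusted p under 0.05 without the replicate block and 491 with it, and adrenal against 0 had 1337 and 1206, with 0 calls in each. Whether the numbers pair the arrays is not stated in the labels. The mean share beyond 2-fold on the log2 reading, 0.0497%, became 0.400% beyond 1.5-fold and 0.00262% beyond 3-fold. It was 0.196% if the base is natural and 7.01% if it is 10, and 0.0313% to 0.0680% without 1 adrenal array. Features beyond 0.25 on the same side, 316 for adrenal 1 and 3, numbered 33 and 47 with the column of adrenal 2. The intraclass correlation of the adrenal mean, -0.019, was -0.041 for genes with at least 3 features. Of 25 lists, 12 had a median above 0, 7 without centring, and 13 to 19 without 1 adrenal array. For the features named for a shared adrenal value or for adrenal minus lymph, 560 of 561 alternatives kept direction and side of the threshold. The exception was NUF2 without adrenal 1. This agreement was largely fixed by how the features were picked. Those named for a shared value had 1 sign on both adrenal arrays, so leaving out an array could not turn their direction. PATZ1 and CD2AP had no main fit and are not in that count. Features named for a far value on 1 array are not in that count, and RPL27A, GOT2, SEC31A, SERPINF1, MXRA7, INTS15, SPCS3 and FMNL3 passed without adrenal 1 and PNMT without adrenal 3. Of the medians of single lists, 57 of 100 stayed within the spread between the arrays. That spread was taken from the list medians of adrenal 1 and adrenal 3. The alternatives without an adrenal array were these same medians, so the count was partly fixed beforehand. The cause of these changes was not tested where none is named. Array number limits the precision, and signal over background was not used here.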
